A study of Mus musculus with 4 samples.

Results

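Car4, Plet1, Chil3 and Atp6v0d2 are 4 genes used as markers of alveolar macrophages, the resident macrophages of the lung airspaces. They were chosen by their small difference between Pparg-deleted (KO) and control (WT) cells, after earlier results of the same arrays were known. Each was measured by 1 probe set that carries its symbol alone, among 18782 genes measured in that way, and all 4 were found. The alveolar macrophage marker list held 35 genes, of which 32 were measured, these 4 included. The data came from alveolar macrophages sorted from adult C57BL/6 mice. WT mice carried floxed Pparg alleles without Cre, and KO mice carried the same floxed alleles with a Cre driven by the CD11c promoter, which is active in alveolar macrophages and dendritic cells. Each group had 2 arrays, each from a pool of 2 mice. In both, live CD45+ cells with high CD11c, autofluorescence and surface Siglec-F were sorted from digested lung, but the WT gate took cells low in CD11b and the KO gate cells high in CD11b. The submitters describe the KO cells as arrested immature precursors, and the WT cells as mature, so genotype and gate cannot be told apart.

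PPARγ, the product of Pparg, is a nuclear receptor that binds DNA together with RXR and drives lipid-handling genes. In the lung it is induced by GM-CSF as fetal monocytes become alveolar macrophages, and these cells clear surfactant lipid. Carbonic anhydrase 4, from Car4, is held on the outer cell surface by a GPI anchor and interconverts carbon dioxide and bicarbonate. It also marks a class of lung capillary endothelial cells. Plet1 encodes another GPI-anchored surface protein, known from epithelial progenitors and myeloid cells. Chil3 encodes Ym1, a secreted chitinase-like lectin that lacks chitinase activity and is induced by IL-4 and IL-13 in other macrophages. Atp6v0d2 encodes the d2 isoform of a subunit in the membrane part of the V-ATPase, the pump that acidifies lysosomes, and is prominent in osteoclasts and macrophages.

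Promoter windows of 250 bases before to 50 bases after the annotated start were found in RefSeq (GRCm38.p6) for 3 of the 4 genes. They are shown because the deleted gene encodes a factor that binds DNA, and because Chil3 has a near copy, Chil4, among its neighbours. Capitals mark every match to the motifs searched, on either strand. The Car4 window is chr11:84957504-84957803 on the plus strand, the Plet1 window chr9:50494275-50494574 on the plus strand, the Chil3 window chr3:106167515-106167814 on the minus strand and the Chil4 window chr3:106219430-106219729 on the minus strand.
Car4: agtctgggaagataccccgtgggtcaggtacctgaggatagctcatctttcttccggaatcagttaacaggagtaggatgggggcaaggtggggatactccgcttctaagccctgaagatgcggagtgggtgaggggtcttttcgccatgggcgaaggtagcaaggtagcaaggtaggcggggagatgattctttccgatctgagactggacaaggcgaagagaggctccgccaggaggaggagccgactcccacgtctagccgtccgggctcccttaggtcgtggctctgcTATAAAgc
Plet1: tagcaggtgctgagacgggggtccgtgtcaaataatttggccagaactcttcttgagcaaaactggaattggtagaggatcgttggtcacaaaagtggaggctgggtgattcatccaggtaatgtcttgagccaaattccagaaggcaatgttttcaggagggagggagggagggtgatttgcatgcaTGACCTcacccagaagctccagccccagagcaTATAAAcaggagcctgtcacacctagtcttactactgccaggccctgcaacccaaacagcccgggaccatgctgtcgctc
Chil3: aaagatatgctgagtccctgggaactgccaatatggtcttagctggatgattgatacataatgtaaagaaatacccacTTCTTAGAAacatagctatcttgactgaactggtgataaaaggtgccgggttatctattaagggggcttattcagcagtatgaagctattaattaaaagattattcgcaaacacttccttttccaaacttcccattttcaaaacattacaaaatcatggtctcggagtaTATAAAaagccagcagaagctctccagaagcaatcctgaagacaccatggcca
Chil4: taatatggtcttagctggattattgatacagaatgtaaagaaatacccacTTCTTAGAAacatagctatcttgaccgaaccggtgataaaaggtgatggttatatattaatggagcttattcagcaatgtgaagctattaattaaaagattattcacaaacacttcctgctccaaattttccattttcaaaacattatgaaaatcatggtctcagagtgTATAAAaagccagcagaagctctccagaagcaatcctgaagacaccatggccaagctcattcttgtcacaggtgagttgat

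The motifs searched on both strands were the TATA box TATAAA, the nuclear receptor motif AGGTCA, its direct repeat AGGTCANAGGTCA to which PPARγ with RXR binds, the STAT motif TTCNNNGAA, the PU.1 motif GAGGAAGT, the C/EBP motif TTGCGCAA and the CLEAR box TCACGTGA of lysosomal genes. The nuclear receptor motif is contained in its repeat. TATAAA occurred in all 4 windows shown, against 13.6% of all 32851 windows. Its first base lay 30 bases before the annotated start in Plet1, 31 before it in Chil4 and 3 before it in Chil3. In Car4 it lay at base 43 after the start. Measured from the annotated start, the matches in Chil3 and Car4 are thus not at the usual place of a TATA box. The Chil3 match (bases 248 to 253) and the Chil4 match (bases 220 to 225) are followed by the same bases to the end of the Chil3 window. The place of the Chil3 match therefore depends on which start is annotated. AGGTCA occurred in 1 of them, as TGACCT at bases 189 to 194 of Plet1, against 16.3% of all windows. The repeat occurred in 0 of them and in 13 of all windows (0.0396%). The STAT motif occurred in Chil3 (bases 79 to 87) and Chil4 (bases 51 to 59), against 8.30% of all windows, and the other motifs in 0 of the 4. A match describes the letters and is not a binding site. A window without a match says nothing of sites elsewhere.

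All values are RMA signals on the log2 scale, which runs from 0.96 to 12.11 with a median of 3.14 on each array. At 10 and above the deposited values are given in steps of 0.01. Differences are KO minus WT, levels are means ± SD over 2 arrays, and the SE and 95% interval of a difference come from limma's fit across all genes. Because the members were chosen on this difference, it is described here with no test of its own. The SE and the interval rest largely on the variance shared across genes, and 2 arrays in each group limit the precision of every value. Pparg itself read 9.69 and 9.75 in WT and 9.59 and 9.73 in KO, and this does not check the genotype, because it is unknown here whether its probes fall in the floxed segment. Of the genes behind the gate, Itgam (CD11b) rose by 5.76 ± 0.14 (SE; limma adjusted p = 1.25e-05) and Siglecf fell by 3.27 ± 0.17 (adjusted p = 1.64e-04) although both gates asked for Siglec-F, while Itgax (CD11c) differed by 0.24 ± 0.09, not past the test. Ptprc (CD45), named after its value was seen, read 10.05 and 9.94 in WT and 9.43 and 9.52 in KO. It was lower by 0.52 ± 0.10 (limma adjusted p = 0.0212) although both gates asked for CD45. Its call with an array left out was not examined. Across genes, arrays of the same genotype correlated with r of 0.995 and 0.996, and arrays of different genotype with r from 0.967 to 0.975. In limma's fit 2680 of 18782 genes (14.3%) passed an adjusted p of 0.05, 1391 (7.41%) higher and 1289 (6.86%) lower in KO.

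Car4 was the only one of the 4 with a visible step between genotypes. It read 10.43 and 10.50 in the WT arrays and 10.15 in each KO array. Both KO arrays lay below both WT arrays, and the spread within each genotype was a fraction of the step. The difference was -0.32 ± 0.10 (SE), with an interval from -0.55 to -0.08, so that KO signal was 80.4% of WT signal with an interval of 68.5% to 94.4%. Since it was chosen on this contrast, its place near the threshold of the fit is a description only: outside in the fit as run and inside in 2 of 10 alternatives.

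Plet1 read 11.17 and 11.18 in WT and 11.15 and 11.11 in KO. The KO arrays again lay below the WT arrays, but the closest pair was 2 steps of the deposited scale apart. The difference was -0.045 ± 0.09 (SE; interval -0.27 to 0.18), or 96.9% of WT signal (82.8% to 113.5%). Over all genes, both KO arrays lay below both WT arrays in 30.0%, so the same order in Car4 and Plet1 is common in this table.

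Chil3 read 11.07 and 11.19 in WT and 11.18 and 11.16 in KO. The groups overlapped, and the spread came from the WT arrays, whose SD was 0.08 against 0.01 in KO. The difference was 0.04 ± 0.10 (SE; interval -0.20 to 0.28), or 102.8% of WT signal (87.0% to 121.6%). Without WT replicate 1 the sign turned, to -0.02, and without WT replicate 2 it was 0.10.

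Atp6v0d2 read 10.85 and 10.81 in WT and 10.82 and 10.84 in KO. All 4 arrays lay within 0.04 of each other and the KO values fell between the WT values. The group means were equal at 10.83, a difference of 0.00 ± 0.09 (SE; interval -0.23 to 0.23), or 100% of WT signal (85.4% to 117.2%). For these last 3 genes the lowest end of an interval was -0.27, in Plet1, and the highest 0.28, in Chil3.

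**Figure D1:**
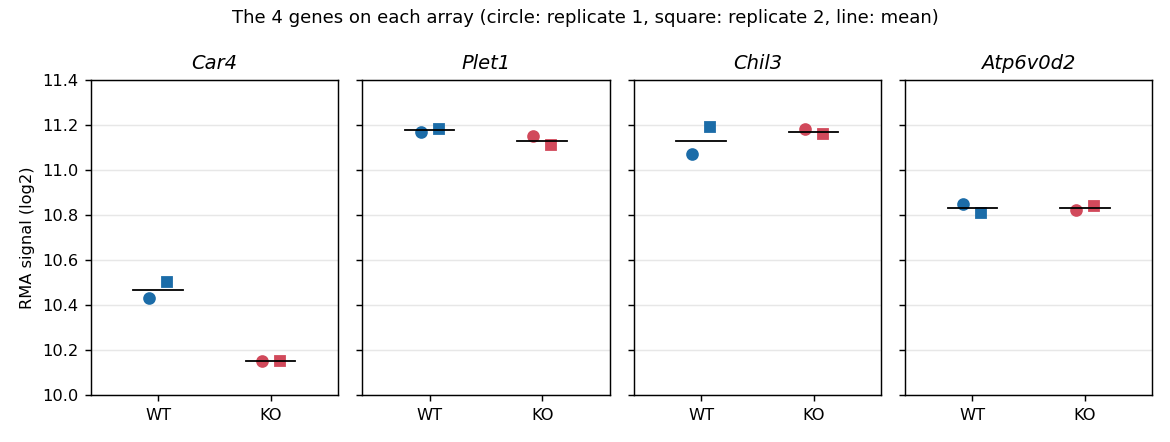
RMA signal (log2) of Car4, Plet1, Chil3 and Atp6v0d2 on each of the 4 arrays; circles are replicate 1, squares replicate 2, and the lines group means, on an axis that starts at 10. Car4 drops from 10.43 and 10.50 in WT to 10.15 in both KO arrays, while the other genes differ by at most 0.12 between any pair of arrays.

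The 4 genes stood among the brightest on every array. In WT, Plet1 ranked 12 and Chil3 ranked 13 of 18782 genes by mean signal, Atp6v0d2 ranked 40 and Car4 ranked 90. In KO the ranks were 17 (Plet1), 14 (Chil3), 40 (Atp6v0d2) and 157 (Car4). Atp6v0d2 ranked 38 and 40 on the WT arrays and 39 on each KO array. Car4 ranked 101 and 85 in WT against 161 and 156 in KO. As percentiles of the WT means they lay at 99.94 (Plet1), 99.93 (Chil3), 99.79 (Atp6v0d2) and 99.52 (Car4). A rank here orders the signals of probe sets, which differ in how brightly they bind, and not the amounts of transcript.

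The distance of the members from the highest signal on the arrays was also measured. The highest gene, Rn28s1, a ribosomal RNA, read 12.11 on each array. Plet1 lay 0.93 to 1.0 below it, Chil3 0.92 to 1.04, Atp6v0d2 1.26 to 1.30 and Car4 1.61 to 1.96. Between 23 and 26 genes read 11 or more on an array, and 1 gene read 12 or more. Saturation of single probes cannot be seen in values summarised over a probe set, and it was not tested; another probe set's level does not say where those of the 4 genes saturate.

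**Figure D2:**
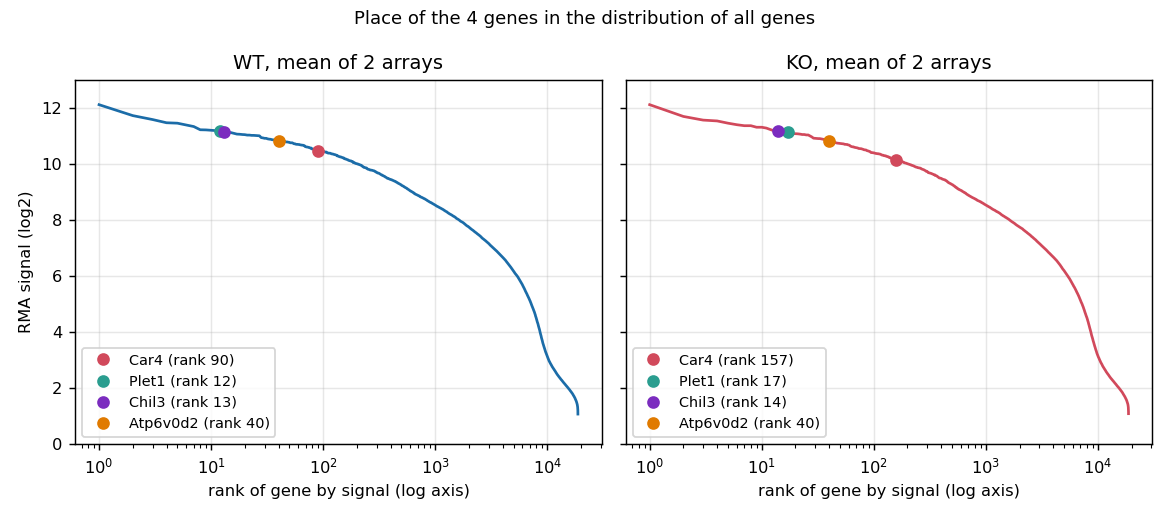
Mean RMA signal (log2) of each of 18782 genes against its rank (log axis), in WT and in KO, with the 4 genes marked. The 4 genes sit on the shallow upper part of the curve, at ranks 12 to 90 in WT and 14 to 157 in KO, below the highest gene at 12.11.

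Large differences were rarer at the members' level than in genes with a WT mean from 8 to 10, and in the fit as run so were calls. Of the 90 genes whose WT mean was at or above that of Car4, the members included, 9 were lower in KO and 0 higher by limma, against 6.86% and 7.41% of all genes. At an unadjusted p under 0.05 the counts were 20 lower and 1 higher. The 9 lower genes are 10% of the group. From 8 to 10 in WT mean, 18.7% of genes were lower and 7.91% higher. In the 86 left without the members, the 95th percentile of the absolute difference was 0.62, against 1.15 in the 1428 genes with a WT mean from 8 to 10 and 1.04 over all genes. The median absolute difference was 0.13 in the 86, 0.23 from 8 to 10 and 0.14 over all genes. At the dim end differences were small too, with a median of 0.08 and a 95th percentile of 0.28 below 2, and a median of 0.12 from 2 to 4. The spread between replicate arrays narrowed too, from a median SD of 0.07 between 8 and 10 to 0.03 in the top group. The count of 9 was 4 without either KO array, 5 without WT replicate 1, 5 with a replicate block and 30 with a variance that follows intensity, which also called 6 genes higher. The fit with a variance that follows intensity called 17.4% of all genes, so the rarer calls at the members' level hold for the fit as run and not for that one. Its calls were not counted by level. Why differences vary with level was not tested.

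Falls from the members' level were nonetheless measured. The largest in the group of 90 were in Trf, the gene of the iron carrier transferrin (10.76 and 10.77 in WT, 9.43 and 9.56 in KO; -1.27 ± 0.10 SE, limma adjusted p = 7.12e-04), and Lpl, the gene of lipoprotein lipase (-1.22 ± 0.12, adjusted p = 0.00166). Abcg1, a cholesterol exporter, fell by 0.86, Cd164 by 0.79 and the lipid droplet coat gene Plin2 by 0.65, which did not pass without either KO array. Among the 38 other genes at or above Atp6v0d2 in WT, the members left out, 3 were lower and 13 differed by at most 0.05. Just below the members the falls were larger. Cyb561a3, named after its value was seen, went from 10.28 and 9.94 in WT to 6.45 and 6.48 in KO, a difference of -3.64 ± 0.13 (limma adjusted p = 5.31e-05).

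Signals also climbed into the range of the members. Of the 158 genes whose KO mean was at or above that of Car4 in KO, 25 were higher and 2 lower in KO by limma, and 10 had risen by 1 or more. Mmp12, the macrophage elastase gene, went from 3.97 and 4.22 in WT to 10.21 in each KO array. Thbs1, the gene of thrombospondin 1, reached 10.47 and 10.32 in KO from 2.79 and 3.92. Counts in groups picked by their level in 1 genotype lean in 1 direction by construction.

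The other markers of alveolar macrophages were read beside these 4. Their list was drawn up with earlier results of these arrays known, so its counts are not an independent background. All 28 others read above the array median on both WT arrays. Of these, 18 were lower in KO, 4 higher and 6 not past the test, with a median difference of -0.91 against -0.02 over all genes. Not all of the 6 had small differences. Marco read 7.22 and 4.43 in WT and 3.04 and 3.37 in KO (-2.62 ± 0.805 SE). Fabp4 read 7.57 and 5.21 in WT and 4.19 and 4.45 in KO (-2.07 ± 0.68). In both genes the WT arrays lay far apart. Slc39a2 differed by -0.54 ± 0.20, and the rest of the 6 are given below. The members are left out of these counts. Over all genes 6.86% were lower and 7.41% higher. Krt79, a keratin gene, fell by 6.19 ± 0.50 (SE; limma adjusted p = 7.86e-04), the fatty acid-binding protein gene Fabp1 by 5.96 ± 0.18 (adjusted p = 2.7e-05), the lipid droplet gene Cidec by 5.67 ± 0.10 (adjusted p = 8.3e-06) and Krt19 by 4.93 ± 0.26 (adjusted p = 1.85e-04). Ctsk, Fabp5, Il1rn and Slc7a2 were higher, by 0.83, 0.67, 0.59 and 0.46. With an array left out, the higher count was 1 without KO replicate 1 and 2 without each of the others.

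Ordered by the size of the difference, Atp6v0d2, Chil3 and Plet1 were the first 3 of the 32 measured markers and Car4 the seventh. Since they were chosen for small differences, the order is a description. The markers between them were Bhlhe41, a transcription factor gene (0.14 ± 0.20 SE), Itgax, which encodes CD11c (0.24 ± 0.09), and Cd9, a tetraspanin gene (-0.24 ± 0.10), and none of them passed the test. Of the 7 other markers with a WT mean of 10 or more, 5 were lower in KO and 0 higher, with differences from -1.22 to 0.24. Lpl, Abcg1, Tgm2, Olr1 and Mrc1 were the lower ones. Olr1, the gene of an oxidised lipoprotein receptor, read 10.59 and 10.35 in WT and 9.97 and 9.99 in KO (-0.49 ± 0.12, limma adjusted p = 0.0395), and with an array left out it passed only when that was WT replicate 2. Mrc1, the mannose receptor gene, read 10.60 and 10.57 against 10.13 and 10.16 (-0.44 ± 0.09, adjusted p = 0.0276), and did not pass with any array left out. The 21 other markers under 10 in WT ran from -6.19 to 0.83, with 13 lower and 4 higher.

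**Figure D3:**
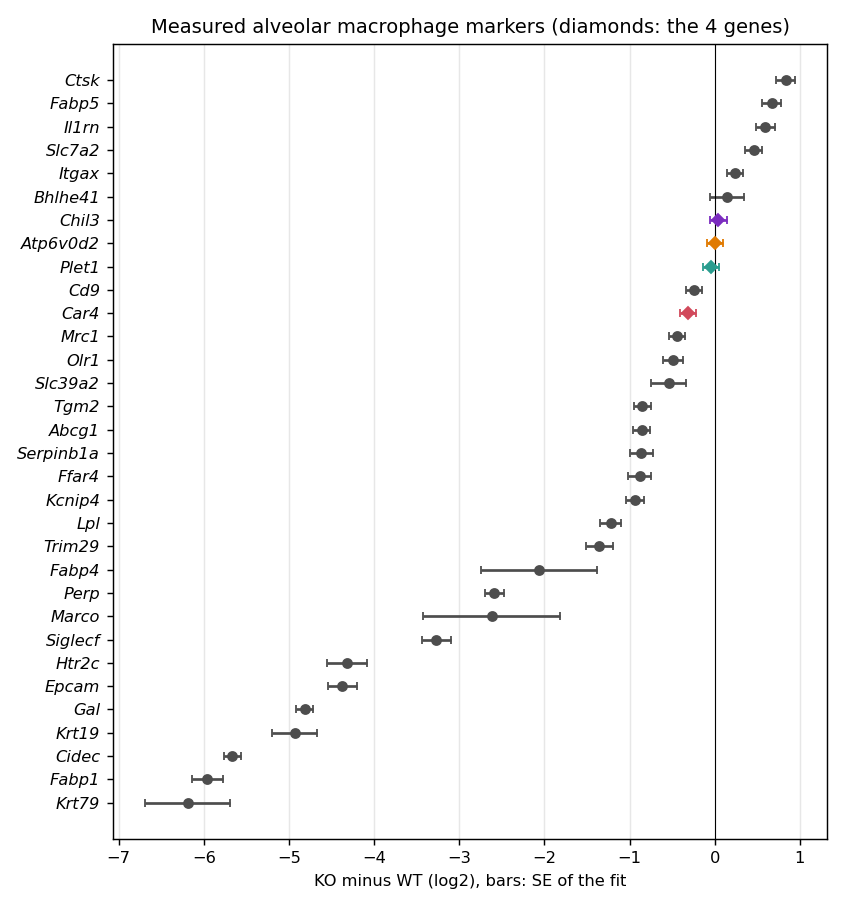
KO minus WT (log2) with the SE of the fit for the 32 measured alveolar macrophage markers, ordered by their difference; diamonds are the 4 genes. Car4, Plet1, Atp6v0d2 and Chil3 lie between -0.32 and 0.04, in a range that runs from -6.19 for Krt79 to 0.83 for Ctsk.

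Other carbonic anhydrases, the family of Car4, were read against the shares of all genes, 7.41% higher and 6.86% lower. With 13 genes the counts cannot be set apart from those shares. Of 13 other measured carbonic anhydrase genes, 2 were higher, 0 lower (0 also at an unadjusted p under 0.05) and 11 not past the test, with a median of 0.06, and 6 read below the array median on all 4 arrays. These were Car1, Car2, Car3, Car8, Car10 and Car12. The mitochondrial enzyme gene Car5b read 6.98 and 6.96 in WT and 6.80 and 6.71 in KO, a difference of -0.22 ± 0.10 that did not pass the test. Car13, a cytosolic enzyme gene, rose by 1.84 ± 0.19 (limma adjusted p = 0.00169), from 4.99 and 5.08 to 7.16 and 6.60. Car6, a secreted enzyme gene, rose by 1.96 ± 0.45 (adjusted p = 0.0355), with KO arrays at 4.80 and 3.27 that were far apart. The higher count was 1 without either WT array, and 1 was lower without WT replicate 1. Car7 (0.06), Car9 (-0.16), Car11 (0.19) and Car15 (-0.04) gave small differences.

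Transporters that move bicarbonate, protons or lactate across membranes did not share a direction. Among 16 measured, 2 rose, 2 fell and 12 did not pass the test, with a median of -0.006. With 16 genes these counts cannot be set apart from the shares of all genes, 7.41% higher and 6.86% lower. The sodium-proton exchanger gene Slc9a2 fell by 3.13 ± 0.27 (limma adjusted p = 0.00103), from 6.65 and 5.82 to 3.28 and 2.95, and the anion exchanger gene Slc4a2 by 0.43 ± 0.09 (adjusted p = 0.031). The lactate transporter genes Slc16a3 (0.74 ± 0.11, adjusted p = 0.00889) and Slc16a1 (0.60 ± 0.14, adjusted p = 0.0375) rose. With any array left out, 1 was lower. The higher count was 1 in each such fit but that without KO replicate 1, where it was 0.

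Lung capillary endothelium also carries Car4, so its markers were read beside it, although a gate on CD45 should remove those cells. Of 18 endothelial markers, all measured, 13 read below the array median on all 4 arrays, among them Cldn5, Kdr, Emcn, Ednrb, Tek and Tie1, and 1 was higher and 0 lower in KO (3 lower at an unadjusted p under 0.05). The higher one was Vwf (1.16 ± 0.10, limma adjusted p = 0.00103). With 18 genes these counts cannot be set apart from the shares of all genes, 7.41% higher and 6.86% lower. Cdh5 read 3.13 and 4.03 in WT and 3.86 and 3.36 in KO, near the array median of 3.14. Summed on the linear scale, the list gave 627 to 757 in WT and 629 to 657 in KO. Most of that was Flt1 (456 to 578 in WT, 378 to 405 in KO), and without it the sums were 171 to 179 in WT and 251 to 252 in KO. The part of this in the level of Car4 was not tested.

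Plet1 shares its GPI anchor with Car4 and with many leukocyte surface proteins. Of 20 other measured genes of a list drawn up for GPI-anchored surface proteins, 7 rose, 2 fell and 11 did not pass the test, with a median of 0.24. The shares of all genes were 7.41% higher and 6.86% lower. Nt5e, the gene of the AMP-hydrolysing enzyme CD73, rose by 2.80 ± 0.36 (limma adjusted p = 0.00438), from 6.17 and 7.39 to 9.57 and 9.59, and the prion protein gene Prnp by 2.00 ± 0.12 (adjusted p = 2.82e-04). The Fc receptor gene Fcgr4 fell by 2.66 ± 0.18 (adjusted p = 4.61e-04) and Treml4 by 2.39 ± 0.31 (adjusted p = 0.00445), but both are known as transmembrane receptors that signal through adaptors, so the list's 2 falls are not of GPI-anchored proteins. The higher count was 4 when WT replicate 1 or KO replicate 2 was left out, and 3 for KO replicate 1. Since Plet1 is also an epithelial gene, 18 epithelial markers were read, although the CD45 gate should remove epithelial cells. Of these, 1 was higher (Hopx, 2.66 ± 0.19), 3 were lower (Ager, -1.32 ± 0.12, Cldn18, -1.07 ± 0.15, and Krt18, -0.57 ± 0.12) and 6 read below the array median throughout, Nkx2-1, Lamp3 and the called Krt18 among them. The summed linear signal of the epithelial markers was 306 to 424 in WT and 477 to 483 in KO. Without Cdh1 the sums were 193 to 307 in WT and 343 to 357 in KO. Hopx read 4.09 and 4.65 in WT and 7.14 and 6.92 in KO. Scgb1a1 read 6.89 and 4.26 in WT, far apart, and 6.48 and 6.63 in KO, and did not pass the test. The part of this signal in the level of Plet1 was not tested.

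The family of Chil3 gave no call. With 8 genes this cannot be set apart from the shares of all genes, 7.41% higher and 6.86% lower. Of 8 other measured genes of chitinases and chitinase-like proteins, 0 were higher and 0 lower in KO by limma at the adjusted p (1 and 0 at an unadjusted p under 0.05), and 5 read below the array median on all 4 arrays. Chil4, the near copy, read 2.77 and 2.99 in WT and 3.28 and 3.08 in KO (0.30 ± 0.13 SE, limma adjusted p = 0.196). Its promoter window above aligned with that of Chil3 over 272 columns with 251 identical bases (92.3%), 19 mismatches and 2 gap bases. Both windows hold the letters of the STAT motif. The coding sequences were not compared here, so whether the Chil3 probes also bind Chil4 transcript is not known. The Chil4 probe set read near the array median of 3.14 on arrays where that of Chil3 read 11.07 to 11.19. Chid1 read 5.30 and 5.43 against 5.63 and 5.94 (0.42 ± 0.13), and Chil1 3.14 and 2.84 against 3.08 and 2.68 (-0.11 ± 0.17). Chia1 (0.20), Chit1 (0.01), Chil5 (0.11), Chil6 (0.07) and Ovgp1 (0.04) gave differences within 0.20.

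Some genes that other macrophages turn on with IL-4 or IL-13 changed. Of 19 others measured, 6 rose, 3 fell and 10 did not pass the test, with a median of 0.30. The shares of all genes were 7.41% higher and 6.86% lower. Retnla, which encodes a secreted resistin-like protein, rose by 2.99 ± 0.28 (limma adjusted p = 0.00129), from 1.49 and 1.67 to 5.01 and 4.11. The transcription factor gene Irf4 rose by 2.90 ± 0.23 (adjusted p = 7.08e-04), the lectin gene Mgl2 by 1.68 ± 0.11 (adjusted p = 3.36e-04) and Cish, a STAT feedback inhibitor gene, by 1.17 ± 0.23 (adjusted p = 0.0198). The higher count was 4 without WT replicate 1 or either KO array. The lower count was 2 without either WT array and 1 without either KO array. Whether these differences differ from that of Chil3 was not tested.

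Chil3 is also made by neutrophils and some monocytes, so their markers were read. The shares of all genes were 7.41% higher and 6.86% lower, and the neutrophil counts cannot be set apart from them. Of 13 measured neutrophil markers, 2 were higher, 1 lower and 7 below the array median throughout (Camp, Ltf, Ngp, Mpo, Elane, Retnlg and Mmp9), with summed linear signals of 308 to 486 in WT and 1110 to 1130 in KO. Mmp8 (2.76 ± 0.40, not past the test without either KO array) and S100a8 (1.92 ± 0.18) were the higher ones, and Csf3r (-1.54 ± 0.17) the lower. The higher sum was that of Mmp8 (84.3 to 220 in WT, 906 to 940 in KO), and without it the sums were 224 to 266 in WT and 190 to 200 in KO. With an array left out, the higher count ran from 1 to 3. Of 12 monocyte markers, 8 were higher and 1 lower, with Plac8 below the median throughout and sums of 3400 to 3870 in WT and 5450 to 5770 in KO. Itgam, which encodes the gated CD11b (5.76 ± 0.14), and Cx3cr1 (2.91 ± 0.16) led them, and the count was 4 without either KO array and 5 without WT replicate 1. Of 17 interstitial macrophage markers, 13 were higher and 1 lower (Mrc1, which passed in 0 of the fits with an array left out), with sums of 2440 to 2460 in WT and 5800 to 5980 in KO, and Folr2, Cd163 and Tmem119 below the median throughout. These sums also lean on single genes. Without Fn1 the monocyte sums were 2200 to 2270 in WT and 3150 to 3450 in KO. Apoe, the brightest interstitial macrophage marker in KO, went from 7.71 and 6.91 in WT to 11.22 in each KO array. The part of neutrophils, monocytes and interstitial macrophages in the level of any of the 4 genes was not tested. In bulk samples, fewer cells of a type and less RNA per cell cannot be told apart.

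The calls among other genes of the V-ATPase, the complex of Atp6v0d2, cannot be set apart from the shares of all genes. Those shares were 7.41% higher and 6.86% lower. Of 22 measured, 1 rose, 0 fell (3 and 0 at an unadjusted p under 0.05) and 21 did not pass the test, with a median of 0.03 and a range from -0.24 (Atp6v1b2) to 0.47 (Atp6v1a). Atp6v1a, the catalytic A subunit, read 8.84 and 8.78 in WT and 9.28 and 9.29 in KO (0.47 ± 0.09, limma adjusted p = 0.0219), and it did not pass with any array left out. The paralog Atp6v0d1, the d subunit of most tissues, read 9.44 and 9.40 in WT and 9.42 and 9.57 in KO (0.08 ± 0.10). Tcirg1, the a3 subunit of lysosomes and osteoclasts, differed by 0.28 ± 0.09 and Atp6v0a1 by 0.43 ± 0.11, neither past the test. Atp6v0e (-0.05), Atp6v1d (0.00), Atp6v1h (0.03) and the accessory gene Atp6ap1 (0.14) gave small differences. The tissue-restricted subunits Atp6v1b1, Atp6v1c2, Atp6v1e2 and Atp6v1g3 read below the array median on all 4 arrays.

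**Figure D4:**
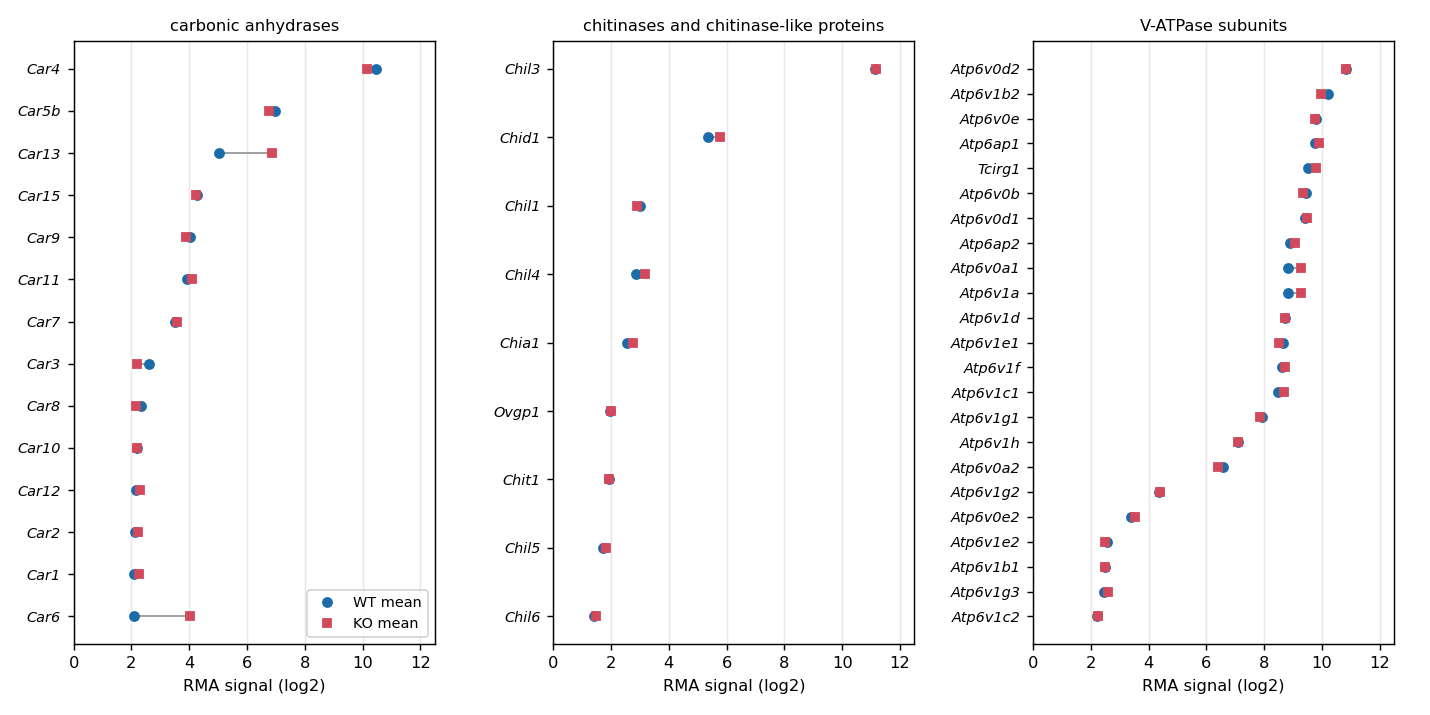
WT (circles) and KO (squares) mean RMA signal (log2) of the measured carbonic anhydrase, chitinase-like and V-ATPase genes, ordered by WT mean. The symbols of most genes lie close together, Chil3 and Atp6v0d2 included, and the wide gaps are those of Car13 (5.03 to 6.88) and Car6 (2.07 to 4.04).

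Other genes of the osteoclast program, of which Atp6v0d2 is part, did not all keep their level. Of 15 others measured, 4 rose, 0 fell (0 also at an unadjusted p under 0.05) and 11 did not pass the test, with a median of 0.21. Of all genes, 7.41% were higher and 6.86% lower. Dcstamp, whose product drives the fusion of macrophages and osteoclasts, rose by 4.33 ± 0.10 (limma adjusted p = 1.1e-05), from 2.71 and 2.62 in WT to 7.04 and 6.95 in KO. The kinase gene Src (2.60 ± 0.44, adjusted p = 0.0118), the cathepsin K gene Ctsk (0.83 ± 0.11, adjusted p = 0.0049) and the acid phosphatase gene Acp5 (0.77 ± 0.11, adjusted p = 0.00604) rose too. Src did not pass without either KO array. Calcr, Oscar, Itgb3, Mmp9 and Car2 read below the array median on all arrays, and Nfatc1, the transcription factor gene of osteoclast formation, read 7.24 and 7.42 against 7.30 and 7.46.

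The genes whose signals over the 4 arrays were nearest to those of each member were found by the root mean square difference. For Atp6v0d2 they were Cybb, the NADPH oxidase subunit gene (0.0245), Ctsc, the cathepsin C gene (0.0324), and Rplp0, a ribosomal protein gene (0.0332), and 15 genes lay within 0.1. For Plet1 they were Tmsb4x, the thymosin beta gene (0.0492), Chil3 (0.0581) and Gm12070 (0.076). For Chil3 they were Plet1 (0.0581), Psap, the prosaposin gene (0.082), and Rpl28, a ribosomal protein gene (0.0863). For Car4 they were Gnb1, a G protein subunit gene (0.0507), Rnu2-10 (0.0536) and Ptbp3, an RNA-binding protein gene (0.057), with differences of -0.31, -0.31 and -0.28 beside its own of -0.32. Likeness over 4 arrays mostly reflects a like level.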

How the data were processed

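Sorted alveolar macrophages were measured on 4 Affymetrix arrays, 2 WT and 2 KO. The deposited values are log2 signals per probe set that the authors produced by RMA (R 2.15.2), as the submitters' processing notes list. RMA corrects background, gives the arrays 1 distribution and summarises probes, so a shift of most transcripts would not be seen. For the genome build and RMA's settings: not given in the sources used here. Of 28371 probe sets, 21158 carried 1 symbol in the platform annotation, and the brightest per gene was kept (18782 genes, no intensity filter). KO and WT were compared across all genes with limma 3.58.1 in R 4.3.3, two-sided, with Benjamini-Hochberg adjustment. The procedure was tested on simulated data. The members and gene lists were chosen with earlier results of these data known. Genes named are the members, their measured paralogs, up to 4 genes of each list with the largest change past the test, the 5 largest falls (0 rises passed) at the members' WT level, the 3 nearest genes per member, and Pparg, Itgam, Itgax and Siglecf. Others, among them the genes named as not past the test, below the median or risen to the members' KO level, were chosen after their values were seen. Alternatives were normalization, an intensity filter, a variance trend, the mean of probe sets, a replicate block and leaving out each array. List counts leave out the members. The labels call the replicates biological, each a pool. Promoters were aligned with Biopython 1.88.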

Additional observations from a re-analysis of the deposited data

How the results depend on the processing

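The values and counts below are those that moved. With the intensity trend, which called 17.4% of all genes, and with dim genes left out, which called 30.4% of 10158, 1 of the 4 members (Car4) was called, which with 4 genes cannot be set apart from those shares. Median centring gave differences of -0.352 (Car4), -0.082 (Plet1) and -0.037 (Atp6v0d2), and quantile normalization gave -0.096 (Plet1). Car4 stayed below 0 in 10 of 10 alternatives and Plet1 in 10. Among the 90 genes at the members' level, the trend called 30 lower and 6 higher, the replicate block 5 lower, and leaving out an array 4 to 7 lower. Leaving out an array gave 726 to 1227 genes higher and 647 to 1057 lower among all genes, 1 to 2 alveolar macrophage markers higher, and 0 V-ATPase genes higher. Of the V-ATPase genes 2 were higher with dim genes left out, and 3 higher and 1 lower with the trend. Replicate numbers are shared between groups but did not pair the arrays (correlation of deviations -0.0173), and a fit with the replicate block called 1309 genes higher and 1168 lower. Of 280 counts of the other lists under the alternatives, 49 moved by over 1.5 times, 37 of them with an array left out. Beside the genes named above as losing their call when an array is left out, Car6, Cish, Cldn18, Fabp5, Il1rn, Krt18, Slc16a1, Slc16a3, Slc4a2 and Slc7a2 lost it in at least 1 such fit. Where a group is left with 1 array, that array is assumed to vary like the other group. With 2 arrays a group, small differences are not resolved.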

Other observations

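The chromosomal neighbours of the 4 genes gave no common direction. Among the 3 measured protein-coding genes on either side of each (24 in all, by RefSeq order), 4 were higher and 1 lower in KO by limma, against 7.41% and 6.86% of all genes. Around Plet1, Il18, a cytokine gene, was lower by 1.79 on the log2 scale (-1.79 ± 0.11 SE, limma adjusted p = 3.2e-04), while Ttc12 (0.95 ± 0.09), Bco2, a carotenoid-cleaving enzyme gene (0.66 ± 0.10, not past the test without KO replicate 1), and Pts, a tetrahydrobiopterin synthesis gene (0.50 ± 0.10, not past the test with any array left out), were higher. Ggh, the gene of a lysosomal folate hydrolase and the second measured gene to 1 side of Atp6v0d2, was higher by 0.74 ± 0.10 (adjusted p = 0.00597). Around Car4 and around Chil3, 0 of 6 passed in each case (2 and 0 at an unadjusted p under 0.05). These genes were named after their values were seen.

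Markers of other cells were read in the same fit. The counts in these short lists cannot be set apart from the shares of all genes, 7.41% higher and 6.86% lower. Eosinophils carry Siglec-F, but the gate on high CD11c should remove them. Of 10 eosinophil markers, Rnase2a was higher (5.19 ± 0.20) and Siglece lower (-0.54 ± 0.13, past the test with an array left out only when that was KO replicate 2), and Epx, Prg2, Ccr3, Il5ra, Prg3 and Cebpe read below the array median on all arrays. Of 14 dendritic cell markers, 2 were higher (Irf4 and Cd209a) and 1 lower (Batf3, not past the test without WT replicate 1 or either KO array). Of 12 lymphocyte markers, 1 was higher (Cd4, not past the test with any array left out) and 1 lower (Prf1, past it with an array left out only when that was WT replicate 2), and summed linear signals were 74.6 to 80.3 in WT and 74.5 to 81.0 in KO.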
